A study of Homo sapiens with 18 samples.

Results

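The enzymes described here carry carbon from glucose into serine and on into the folate pool: PHGDH, PSAT1 and PSPH, which make serine, and SHMT1, SHMT2, MTHFD1, MTHFD2, MTHFD1L and ALDH1L2, which move a single carbon from serine onto folate and between folate forms. The 9 genes were selected by symbol for these roles, at a time when their responses in the same libraries were already known, so every value of theirs that sets siASAP1 against siCtrl is given as a description. Where counts of members past limma's limits are printed for that contrast, they stand beside the same count over all probes and support nothing. Each of the 9 had 1 probe, out of 21111 probes for 19289 gene symbols. The 18 libraries came from 3 triple-negative breast cancer (TNBC) cell lines, the mesenchymal-like BT549 and Hs578T and the basal-like SUM149PT. Cells of each line were transfected at 50 nM, either with a pool of siRNAs against ASAP1, which encodes an Arf GTPase-activating protein (siASAP1), or with control siRNA (siCtrl), in biological triplicate, and were lysed after 72 h. There was no untransfected group, and a single siRNA pool stood for the depletion. RNA was read by TempO-Seq, in which pairs of detector oligos ligate on a target mRNA and are counted by sequencing, so that each value counts ligated probes and not whole transcripts. Values below are normalised read counts, that is, reads divided by a size factor of the library, and Log2 FC is the difference of mean log2(normalised read count + 1) between groups. Because probes differ in how well they ligate and carry no length, levels are compared between libraries for the same gene and never between genes.

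Serine is made from a glycolytic intermediate in a short pathway. PHGDH oxidises 3-phosphoglycerate, PSAT1 transfers an amino group from glutamate, and PSPH removes the phosphate. Serine hydroxymethyltransferase then splits serine to glycine and hands the carbon to tetrahydrofolate, in the cytosol through SHMT1 and in the mitochondrion through SHMT2. MTHFD2 and MTHFD1L carry the mitochondrial carbon on to formate, ALDH1L2 oxidises it to carbon dioxide with the production of NADPH, and MTHFD1 takes up formate in the cytosol for purine and thymidylate synthesis. In breast cancer the pathway is best known for amplification of PHGDH in part of the tumours that lack oestrogen receptor, and for the high mitochondrial branch of proliferating cells. ATF4, the transcription factor of the amino acid and stress response, is a well-known activator of PHGDH, PSAT1, SHMT2, MTHFD2 and ALDH1L2.

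The genes lie on 8 chromosomes in GENCODE 29 (GRCh38), where all 9 are annotated as protein coding. SHMT2 is at chromosome 12, 57229327 to 57234935, on the plus strand, and ALDH1L2 lies on the same chromosome, at 105019784 to 105084577 on the minus strand. PSAT1 is on chromosome 9, 78297143 to 78330093 (plus strand). MTHFD2, on chromosome 2 at 74198562 to 74217565 (plus strand), has 7 annotated pseudogenes that carry its name, PSAT1 has 4, and PSPH, SHMT1 and MTHFD1 have 1 each. Probe sequences were not used here, so whether reads of these 5 genes could also come from such copies was not checked, and their values are uncertain to that extent.

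A promoter window was found in RefSeq (GRCh38.p14) for 6 of the genes, PHGDH, PSAT1, SHMT1, MTHFD1, MTHFD2 and MTHFD1L. A gene counts below if any of its windows matched, whereas shares over RefSeq are by window. In the 250 bases before the start site, all 6 held the letters CCAAT or their reverse complement, in 8 of their 9 windows. Of 35116 RefSeq windows of that length, 32.0% held them. The GC box GGGCGG was in the windows of 3 of the 6 (5 of 9 windows), against 42.6% of all windows. The E-box CACGTG, the letters read by MYC and related factors, was in 2 (MTHFD1 and MTHFD1L, 3 of 9 windows), against 6.35%. Both strands were searched and no matched base belonged to more than 1 of these motifs in a member window. The letters TTGCATCA, bound by ATF4 with a C/EBP partner, were in the window of MTHFD1L alone, in 2 of its 4 alternative windows, against 0.772% of all windows, and TGACGTCA was in none of the 6, against 1.65%. The MTHFD1L windows that start at 150866083, 150866197 and 150866236 overlapped. Their CCAAT, E-box and TTGCATCA matches were each the same site counted in more than 1 window, so counts of member windows are not counts of separate sites. A match describes the letters and not a bound site, and a window without them says nothing of the factor. Shown are the windows of PHGDH and PSAT1, the pair with the lowest Log2 FC over the 18 libraries, of MTHFD2, whose siASAP1 and siCtrl libraries in Hs578T did not overlap, and of MTHFD1L, which holds the ATF4 letters. Capitals mark the matched motifs, and the windows run 5′ to 3′ along the gene's strand, all plus, at chr1:119711684-119711933, chr9:78296875-78297124, chr2:74198365-74198614 and chr6:150866236-150866485.
PHGDH: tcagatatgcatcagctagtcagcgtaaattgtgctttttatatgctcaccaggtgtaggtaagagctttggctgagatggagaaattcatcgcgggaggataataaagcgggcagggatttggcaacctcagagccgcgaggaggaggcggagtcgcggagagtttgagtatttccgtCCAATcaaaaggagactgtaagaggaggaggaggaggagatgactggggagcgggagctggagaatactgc
PSAT1: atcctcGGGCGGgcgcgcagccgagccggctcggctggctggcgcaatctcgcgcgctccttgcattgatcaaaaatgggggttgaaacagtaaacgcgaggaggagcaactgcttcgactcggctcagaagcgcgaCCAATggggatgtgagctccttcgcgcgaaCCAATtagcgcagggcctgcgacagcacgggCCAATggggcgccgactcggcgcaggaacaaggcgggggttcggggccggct
MTHFD2: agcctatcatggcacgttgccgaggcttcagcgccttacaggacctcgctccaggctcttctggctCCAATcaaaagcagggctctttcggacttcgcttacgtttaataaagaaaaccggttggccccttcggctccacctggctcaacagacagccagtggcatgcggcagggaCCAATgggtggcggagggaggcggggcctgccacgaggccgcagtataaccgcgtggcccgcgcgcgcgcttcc
MTHFD1L: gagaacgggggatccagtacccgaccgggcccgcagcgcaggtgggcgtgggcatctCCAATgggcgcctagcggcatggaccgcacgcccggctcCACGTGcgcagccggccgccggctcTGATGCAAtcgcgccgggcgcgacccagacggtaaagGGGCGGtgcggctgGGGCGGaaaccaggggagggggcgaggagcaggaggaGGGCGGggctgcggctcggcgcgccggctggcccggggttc

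The libraries held 4.63 to 12.5 M reads (median 6.63 M). The targeted gene was lower after siASAP1 in all 3 BT549 and all 3 Hs578T libraries than in any siCtrl library of the line, at a mean of 62.3% and 49.9% of siCtrl. In SUM149PT the siCtrl libraries held 1087, 189 and 1314 normalised reads of ASAP1 and the siASAP1 libraries 282, 468 and 184, so the library labelled siCtrl replicate 2 was at the siASAP1 level and the library labelled siASAP1 replicate 2 was the highest of its group. Over all probes this library differed from its 2 sister libraries by a chi-square of 235 and 247 per degree of freedom, against 10.1 between those sisters, and without it the Log2 FC of ASAP1 went from -1.16 to -2.04. The library labelled siASAP1 replicate 1 of BT549 also stood apart (131 and 146, against 40.4), although its ASAP1 was low, and the library labelled siASAP1 replicate 2 of SUM149PT lay away from its sisters as well (129.5 and 100.5, against 23.6). Across 10078 probes its deviations from the group mean correlated with those of siCtrl replicates 1 and 3 (r = 0.49 and 0.52), and those of the library labelled siCtrl replicate 2 with siASAP1 replicates 1 and 3 (0.42 and 0.43). Whether the labels of these SUM149PT libraries were exchanged was not tested, the labels were kept, and every direction in SUM149PT is that of the libraries as labelled. The Log2 FC values that moved most without the first of these libraries or without the BT549 library are given both ways. Of 5 epithelial and basal markers, CDH1 and KRT5 had no reads in BT549 and Hs578T, and the 5 summed to 57.4 to 482 normalised reads there against 27579 to 55164 in SUM149PT. ZEB1, of 5 mesenchymal markers, had no reads in 5 of the 6 groups. The mesenchymal sum differed between the arms without overlap in SUM149PT (5712 to 7078 in siCtrl, 9893 to 11847 in siASAP1) and BT549 (57093 to 58759, and 60528 to 110093), and overlapped in Hs578T (155626 to 265204, and 151614 to 200357). Of 4 leukocyte and endothelial markers CD34 had no reads in any library and PTPRC none in 5 of the 6 groups and at most 3 in a library. Their sum thus rested on CD68 (7 to 434 reads) and on 1 of the 2 PECAM1 probes (0 to 113 reads), the other having none. The sum of the 4 was higher after siASAP1 without overlap in Hs578T (105.4 to 147 in siCtrl, 275 to 368 in siASAP1) and BT549 (4.4 to 12.5, and 22.2 to 61.1), and overlapped in SUM149PT (92.7 to 122, and 105.1 to 174). The part of these marker shifts in the siASAP1 values below was not tested.

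After ASAP1 depletion no member passed the study's limits for a differentially expressed gene (DEG; unadjusted p below 0.05 and a Log2 FC beyond 1 in either direction, from limma) in BT549 or SUM149PT, and PSAT1 alone passed them, as lower, in Hs578T. MTHFD2 was lower in every siASAP1 library than in any siCtrl library of Hs578T. Over all probes of Hs578T, 1.44% were called lower and 5.78% were lower without overlap. PHGDH and PSAT1 had negative Log2 FC in each line that could be fitted, and ALDH1L2 was lower on average in all 3. The PSAT1 value in SUM149PT rested on a single library. Log2 FC was positive for MTHFD2 and MTHFD1L in BT549, SHMT2 and MTHFD1 in Hs578T, and PSPH and MTHFD1L in SUM149PT. Levels of the cytosolic SHMT1 and the mitochondrial SHMT2 overlapped between siASAP1 and siCtrl in every line. In these bulk samples a lower value from fewer cells of a kind and from less RNA per cell cannot be told apart.

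**Figure D1:**
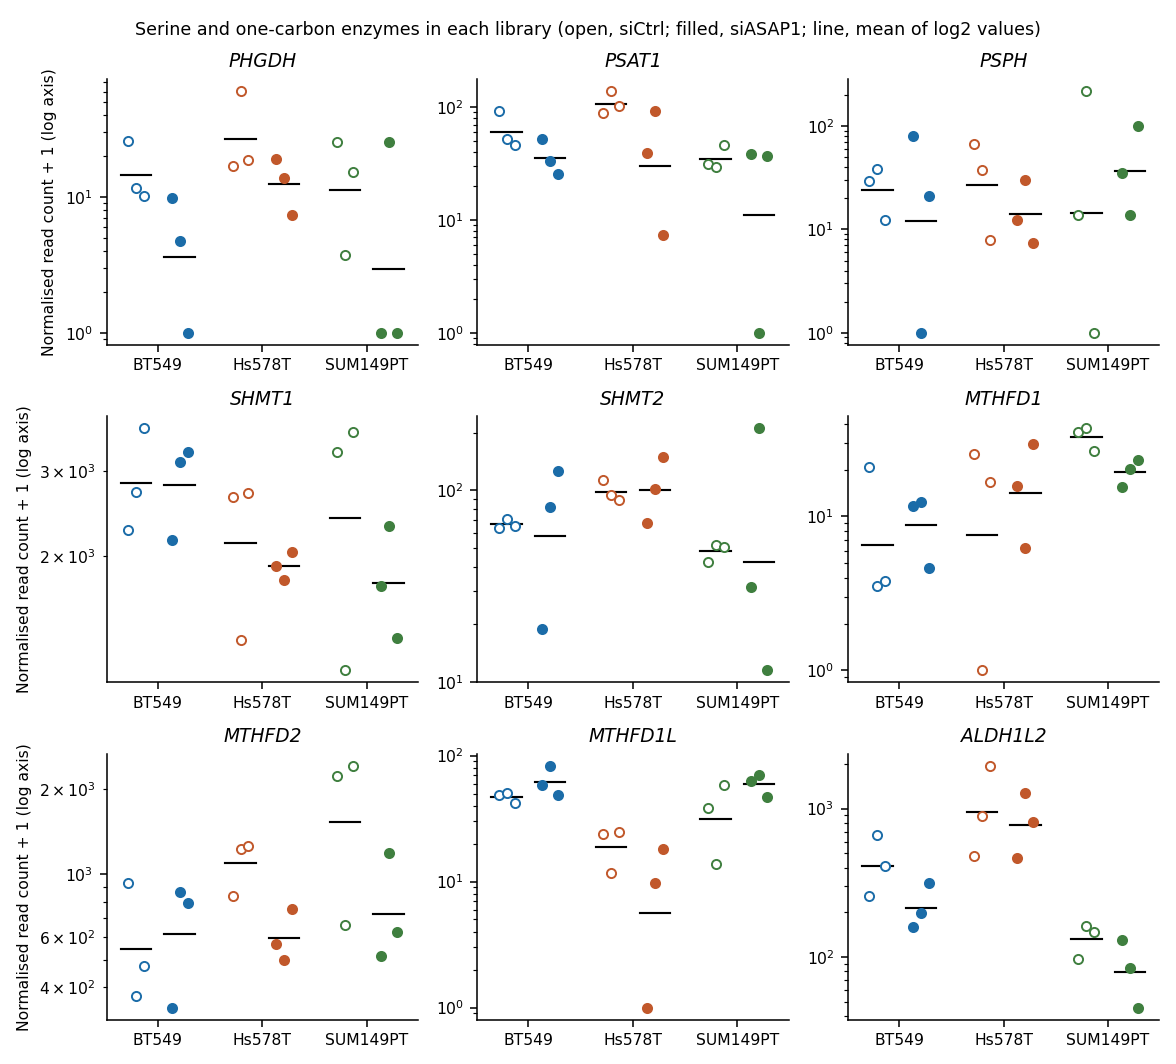
Normalised read count plus 1 (log axis) of the 9 genes in each of the 18 libraries, with siCtrl open, siASAP1 filled and the line at the mean of the 3 log2 values. ALDH1L2 is highest in Hs578T and lowest in SUM149PT in both arms, with no overlap between those lines, and for most genes siASAP1 and siCtrl points of a line interleave.

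PHGDH, the first and rate-controlling enzyme of serine synthesis, was read weakly, with 0 to 73 reads in a library. In BT549 the siCtrl libraries had 25.0, 10.7 and 9.12 normalised reads and the siASAP1 libraries 8.89, 3.78 and 0, so the groups did not overlap, but the mean over the 6 libraries was below the minimum of 10 and no Log2 FC was fitted in that line alone. In Hs578T the values were 16.0, 59.6 and 17.7 in siCtrl and 18.1, 12.7 and 6.40 in siASAP1, with 1 siASAP1 library inside the siCtrl range (Log2 FC -1.11, SE 0.77). In SUM149PT the siCtrl libraries held 24.3, 2.73 and 14.4 and the siASAP1 libraries 0, 24.4 and 0. There the 2 siASAP1 libraries without a read lay below all siCtrl libraries and the other was level with the highest of them, which left a Log2 FC of -1.95 with an SE of 1.79, and -2.75 (SE 1.91) without the library labelled siCtrl replicate 2. A library without a read still allows up to 3 reads, which is 3.97 and 3.94 normalised reads in those 2 libraries, counting error only.

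PSAT1, the aminotransferase of the pathway, was lower on average after siASAP1 in all 3 lines. Hs578T had 86.9, 138 and 100.5 normalised reads in siCtrl and 38.5, 91.4 and 6.40 in siASAP1, for a Log2 FC of -1.84 (SE 0.80). Only the second siASAP1 library reached into the siCtrl range, and the third, with 6 reads, carried much of the difference. In BT549 the corresponding values were 91.1, 51.6 and 44.9 and 51.6, 32.1 and 24.6 (Log2 FC -0.77, SE 0.56), with 2 of 3 siASAP1 libraries under all siCtrl libraries. SUM149PT had 30.0, 28.2 and 44.8 in siCtrl and 37.0, 0 and 35.5 in siASAP1, and its Log2 FC of -1.63 (SE 1.43) came from the single library without a read, since it was 0.11 with that library left out. The Hs578T call was lost without siCtrl replicate 1 or 2, and without siASAP1 replicate 1 or 3, where the Log2 FC ran from -2.04 to -0.83. It was also lost with scaling to library totals, upper-quartile scaling, a minimum count of 50, a fit over all 18 libraries or voom weights. The call was made in 6 of 15 alternatives.

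PSPH, the phosphatase that completes serine synthesis, had the largest SE of the 9 genes over the 18 libraries (0.94). Its reads departed from equal expression within the groups by a chi-square of 44.1 per degree of freedom at a mean of 39.5 normalised reads, against 13.7 for PSAT1 at 51.8. In SUM149PT the siCtrl libraries held 12.9, 219 and 0 and the siASAP1 libraries 34.4, 12.8 and 98.6 normalised reads. The highest of these values was the siCtrl library that stood apart, and without it the Log2 FC moved from 1.33 (SE 1.82) to 3.29 (SE 1.43), which passes the DEG limits as higher, while without siCtrl replicate 3 it was -0.60. Without the library labelled siCtrl replicate 2, 2325 of 9953 probes passed the limits, against 963 of 10078 with all libraries. BT549 ranged over 28.7, 37.1 and 11.2 in siCtrl and 80.0, 0 and 20.1 in siASAP1 (Log2 FC -1.01, SE 1.39). Single libraries set that value, which was -2.39 without siASAP1 replicate 1 and 0.78 without siASAP1 replicate 2. Hs578T ranged over 66.7, 36.7 and 6.90 and 11.3, 28.9 and 6.40 (Log2 FC -0.96, SE 0.92), and passed the DEG limits as lower without siCtrl replicate 3 (-1.85, SE 0.76). In that fit 634 of 9505 probes passed them, against 264 of 9500 with all libraries. The groups overlapped in all 3 lines.

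SHMT1, the cytosolic hydroxymethyltransferase, was the most deeply read probe of the set (1030 to 5233 reads) and moved little. BT549 held 2262, 2715 and 3671 normalised reads in siCtrl and 2161, 3130.3 and 3277 in siASAP1 (Log2 FC -0.01, SE 0.34), and Hs578T held 2641, 1341 and 2704 and 1906, 1781 and 2039.9 (Log2 FC -0.16, SE 0.31). In SUM149PT the siCtrl values of 3279, 1161 and 3611 and the siASAP1 values of 1732, 2302 and 1354 gave -0.45 (SE 0.51), and without the siCtrl library that stood apart -0.97 (SE 0.34), where all 3 siASAP1 libraries lay under both remaining siCtrl libraries.

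SHMT2, its mitochondrial counterpart, was even across siCtrl libraries and wide across siASAP1 libraries in each line. BT549 gave 62.4, 69.8 and 64.5 in siCtrl and 17.8, 81.2 and 125 in siASAP1, Hs578T 112, 93.8 and 88.7 and 66.9, 101 and 148, and SUM149PT 41.5, 51.0 and 49.6 and 30.4, 210.2 and 10.5. The siASAP1 libraries thus lay on both sides of the siCtrl libraries in all 3 lines, with SDs of 53.9, 40.9 and 110.0 normalised reads after siASAP1 and 3.81, 12.4 and 5.14 in siCtrl. Log2 FC values were -0.20 (SE 0.69), 0.03 (SE 0.39) and -0.18 (SE 1.02) in that order. They turned on single libraries, with 0.61 in BT549 without siASAP1 replicate 1 and -1.34 in SUM149PT without siASAP1 replicate 2.

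MTHFD2, the mitochondrial dehydrogenase and cyclohydrolase that is high in proliferating and tumour cells, fell into separate groups in Hs578T. There the siCtrl libraries had 839.6, 1228 and 1258 normalised reads and the siASAP1 libraries 565, 497 and 751, a mean of 54.5% of siCtrl and a Log2 FC of -0.87 (SE 0.29). It passed the DEG limits, as lower, without siCtrl replicate 1 (-1.06) or siASAP1 replicate 3 (-1.04). In those fits 253 of 9517 and 173 of 9494 probes passed them in either direction. SUM149PT had 2219.7, 661 and 2409 in siCtrl and 516, 1185 and 624 in siASAP1. The groups overlapped there only because the library labelled siASAP1 replicate 2 (1185) lay above the one labelled siCtrl replicate 2 (661). Leaving out siCtrl replicate 2 moved the Log2 FC from -1.07 (SE 0.60) to -1.67 (SE 0.42), which passes the DEG limits. In that fit 2325 of 9953 probes passed them, against 963 of 10078 with all libraries. In BT549 no such shift was seen, with 931, 371 and 474 in siCtrl and 339, 865 and 791 in siASAP1 (Log2 FC 0.17, SE 0.49, and 0.60, SE 0.41, without siASAP1 replicate 1).

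MTHFD1L, the mitochondrial formate synthetase, was higher on average after siASAP1 in BT549 (47.4, 49.7 and 41.4 in siCtrl, 57.8, 82.1 and 47.5 in siASAP1) and in SUM149PT (37.2, 12.8 and 57.5 and 62.2, 69.2 and 46.0). In Hs578T it was lower on average, with 22.8, 10.6 and 23.6 in siCtrl and 0, 8.67 and 17.1 in siASAP1. The groups overlapped in each line. The Log2 FC values were 0.40 (SE 0.49), 0.92 (SE 0.71) and -1.76 (SE 1.21). The last 2 rested on single libraries, with 0.33 (SE 0.60) in SUM149PT without the library labelled siCtrl replicate 2 and -0.52 (SE 0.85) in Hs578T without siASAP1 replicate 1, which had no read.

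ALDH1L2, the mitochondrial enzyme that burns the carbon of formyl-folate to carbon dioxide, was lower on average after siASAP1 in each line. In BT549 it went from 257, 662 and 409.7 in siCtrl to 159, 198 and 313 in siASAP1, a mean of 50.5% of siCtrl (Log2 FC -0.94, SE 0.47), and 2 of the 3 siASAP1 libraries lay below all siCtrl libraries. SUM149PT had 95.8, 160.3 and 147 and 128, 83.3 and 44.7 (Log2 FC -0.74, SE 0.56). Hs578T, with the highest level and the widest spread, had 479, 897 and 1945 and 463, 1267 and 806 (Log2 FC -0.27, SE 0.52, and 0.25 without siCtrl replicate 3). BT549 ALDH1L2 passed the DEG limits, as lower, when siCtrl replicate 1 or siASAP1 replicate 3 was left out (-1.27 and -1.21). In those fits 521 of 9711 and 325 of 9444 probes passed them in either direction.

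MTHFD1, the cytosolic enzyme with all 3 folate activities, was read as weakly as PHGDH, with 0 to 40 reads. SUM149PT had 34.3, 36.4 and 25.6 normalised reads in siCtrl and 14.6, 19.2 and 22.3 in siASAP1, which did not overlap (58.3% of siCtrl on average, Log2 FC -0.75, SE 0.68). BT549 had 20.0, 2.52 and 2.81 in siCtrl and 10.7, 11.3 and 3.65 in siASAP1, under the minimum for a fit, and Hs578T had 24.5, 0 and 15.8 and 14.7, 5.20 and 28.8 (Log2 FC 0.92, SE 1.34). The Hs578T sign rested on siCtrl replicate 2, which had no read, since without it the value was -0.53 (SE 0.94).

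Counts of members are set beside those of all probes. In BT549, where 7 of the 9 passed the filter on low counts, 0 were called by limma's DEG limits (0 also with voom weights), while 3.69% of 9666 probes were called lower and 3.28% higher. By the unadjusted p alone, 0 of the 7 had a p below 0.05, against 7.80% of probes. Among those 7, none had groups that did not overlap, against 6.51% of probes lower and 7.35% higher. In Hs578T 1 of 9 was called (0 with voom weights), against 1.44% lower and 1.34% higher, 2 of 9 (PSAT1 and MTHFD2) had an unadjusted p below 0.05, against 5.28%, and 1 of 9 (MTHFD2) did not overlap, against 5.78% lower and 6.31% higher. SUM149PT had 0 of 9 called (0 with voom weights), against 4.29% and 5.27%, 0 of 9 with an unadjusted p below 0.05, against 10.2%, and 1 of 9 (MTHFD1) that did not overlap, against 8.41% lower and 8.87% higher. The members were selected with these contrasts known, so nothing is read from the counts. The tested members had median Log2 FC values of -0.20 (BT549), -0.87 (Hs578T) and -0.74 (SUM149PT), beside -0.0015, 0.01 and 0.09 over all probes. Scaling to library totals moved the median of all probes to 0.12 in Hs578T and 0.30 in SUM149PT, and the calls from 137 lower and 127 higher to 83 and 196 in Hs578T and from 432 and 531 to 267 and 761 in SUM149PT.

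**Figure D2:**
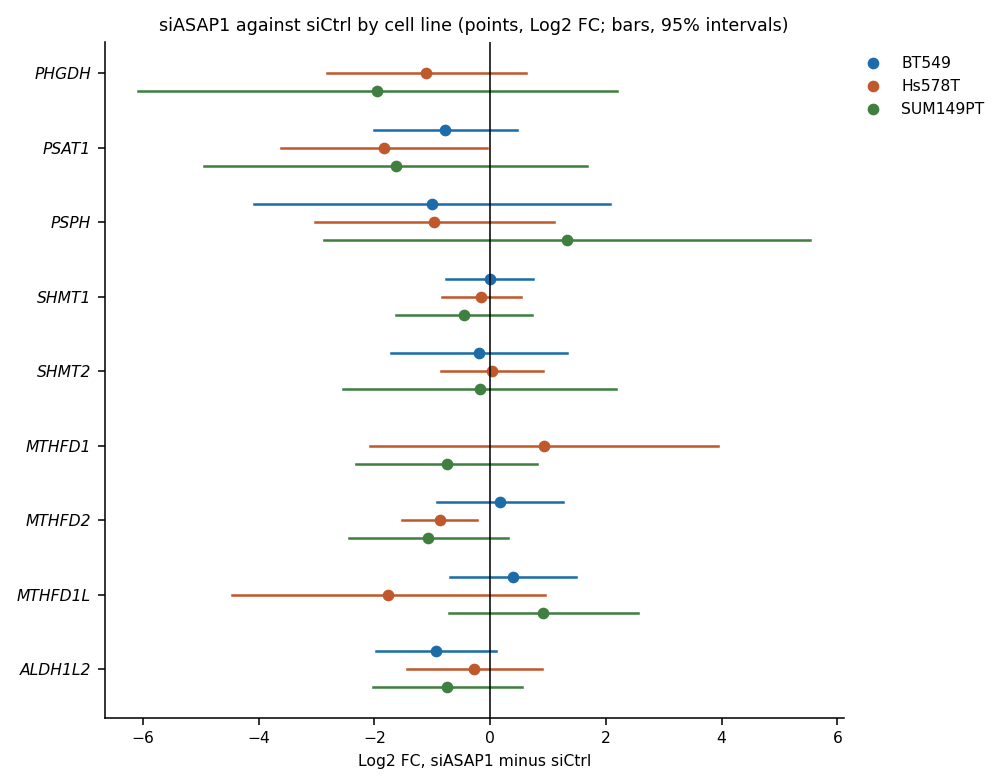
Log2 FC of siASAP1 against siCtrl for each gene and cell line, with 95% intervals from limma. PHGDH and MTHFD1 were below the minimum count in BT549 and have no bar there, and the intervals of PSAT1 and MTHFD2 in Hs578T are the ones that do not reach 0.

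Fitted over the 18 libraries with a term for cell line, 8 of the 9 genes had a negative Log2 FC and MTHFD1 alone a positive Log2 FC. The values were -1.69 (SE 0.65) for PHGDH, -1.42 (SE 0.61) for PSAT1, -0.65 (SE 0.30) for ALDH1L2 and -0.59 (SE 0.30) for MTHFD2, and those of the other 5 lay between -0.21 and 0.20. By limma 0 of 9 passed an adjusted p of 0.05 (0 also with voom weights), against 1.06% of 10475 probes lower and 0.678% higher, and 3 of 9 (PHGDH, PSAT1 and ALDH1L2) had an unadjusted p below 0.05, against 15.8%. With scaling to library totals the median of all probes rose from 0.02 to 0.15 and the calls went from 111 lower and 71 higher to 80 and 122. A fit added after seeing the data left out BT549 siASAP1 replicate 1 and SUM149PT siCtrl replicate 2, and kept SUM149PT siASAP1 replicate 2. Its values were -2.11 for PHGDH, -1.57 for PSAT1, -0.51 for ALDH1L2 and -0.67 for MTHFD2, and ASAP1 itself went from -0.96 to -1.13. For a difference of the siASAP1 response between the lines, 0 of 9 members passed an adjusted p of 0.05 by limma (0 also with voom weights), against 0.00955% of probes, and 0 of 9 an unadjusted p below 0.05, against 6.22%.

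The 3 most deeply read probes had the smallest errors. The SE of the 18-library Log2 FC was 0.22 for SHMT1, with a mean of 2393 normalised reads, 0.30 for MTHFD2 and ALDH1L2, with 918 and 473, and 0.45 to 0.94 for the 6 genes with means of 14.1 to 79.1. Reads of all 9 genes scattered between replicates by more than counting alone gives, with a chi-square per degree of freedom from 5.35 (MTHFD1L) to 238 (SHMT1).

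**Figure D3:**
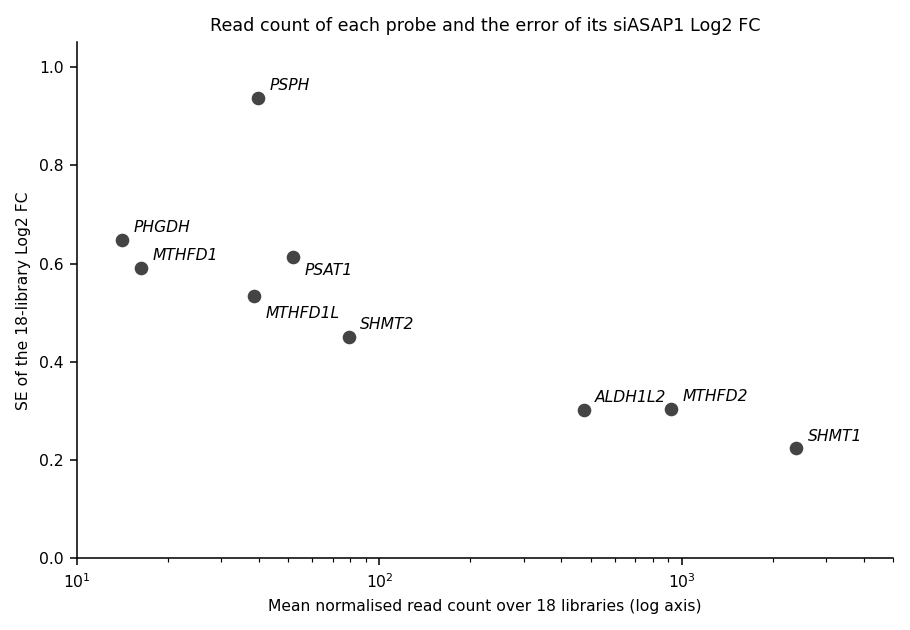
Standard error of the 18-library Log2 FC against the mean normalised read count of each gene's probe (log axis), 1 point for each gene. The 3 deeply read probes (SHMT1, MTHFD2 and ALDH1L2) sit at an SE of 0.22 to 0.30 and PSPH is highest at 0.94.

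Which of these enzymes the cell lines differ in before any depletion was asked in the siCtrl libraries, the same ones that enter the siASAP1 contrasts. The genes were chosen with earlier results of these data known, so their choice cannot be called independent of these values. ALDH1L2 stood out: it was highest in Hs578T (mean 1107 ± 755 normalised reads, SD, n = 3), intermediate in BT549 (443 ± 204) and lowest in SUM149PT (134 ± 34.1). Between SUM149PT and Hs578T its Log2 FC was -2.83 (SE 0.55), with an adjusted p of 0.00444 by limma. PSAT1 had the same order, with 108 ± 26.4, 62.5 ± 25.0 and 34.3 ± 9.06 normalised reads, and a Log2 FC of -1.63 (SE 0.49, limma adjusted p = 0.0403) between SUM149PT and Hs578T. These 2 of 9 passed an adjusted p of 0.05 and a Log2 FC of 1, against 20.2% of 10255 probes, and 3 of 9, with SHMT2 as the other, had an unadjusted p below 0.05, against 33.0%. The PSAT1 call stood on a narrow margin, since it was lost when any 1 of 7 of the 9 siCtrl libraries was left out (all but BT549 replicate 1 and SUM149PT replicate 2), where adjusted p by limma ranged from 0.0344 to 0.15 over the 9 fits. The ALDH1L2 call held without any of the 9, with Log2 FC from -3.32 to -2.31 and adjusted p from 0.0037 to 0.0223.

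Neighbours in the order of ALDH1L2 were not separated by the same limits. SUM149PT was lower than BT549 by a Log2 FC of -1.64 (SE 0.55, limma adjusted p = 0.0665), and BT549 was lower than Hs578T by -1.19 (SE 0.55, limma adjusted p = 0.202). Between SUM149PT and BT549, 0 of 9 members were called by limma (0 also with voom weights), against 18.2% of probes, and 2 of 9 (ALDH1L2 and MTHFD2) had an unadjusted p below 0.05, against 30.1%. Between BT549 and Hs578T the counts were 0 of 9 called (0 also with voom weights), against 13.8%, and 0 of 9 unadjusted, against 25.9%. The library labelled siCtrl replicate 2 of SUM149PT weighed on these results, since without it MTHFD2 was called higher in SUM149PT than in BT549 (Log2 FC 2.08, SE 0.39, limma adjusted p = 0.00388, against 1.48, SE 0.54, adjusted p = 0.0918 with it) and ALDH1L2 lower (-1.78, SE 0.59, adjusted p = 0.0437). These 2 of 9 calls stand beside 3351 of 10094 probes called in that fit, so nothing is read from them about the members. Mesenchymal and epithelial markers also differed between the lines as given above, with the mesenchymal sum highest in Hs578T and lowest in SUM149PT like ALDH1L2, and their part in these differences was not tested.

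**Figure D4:**
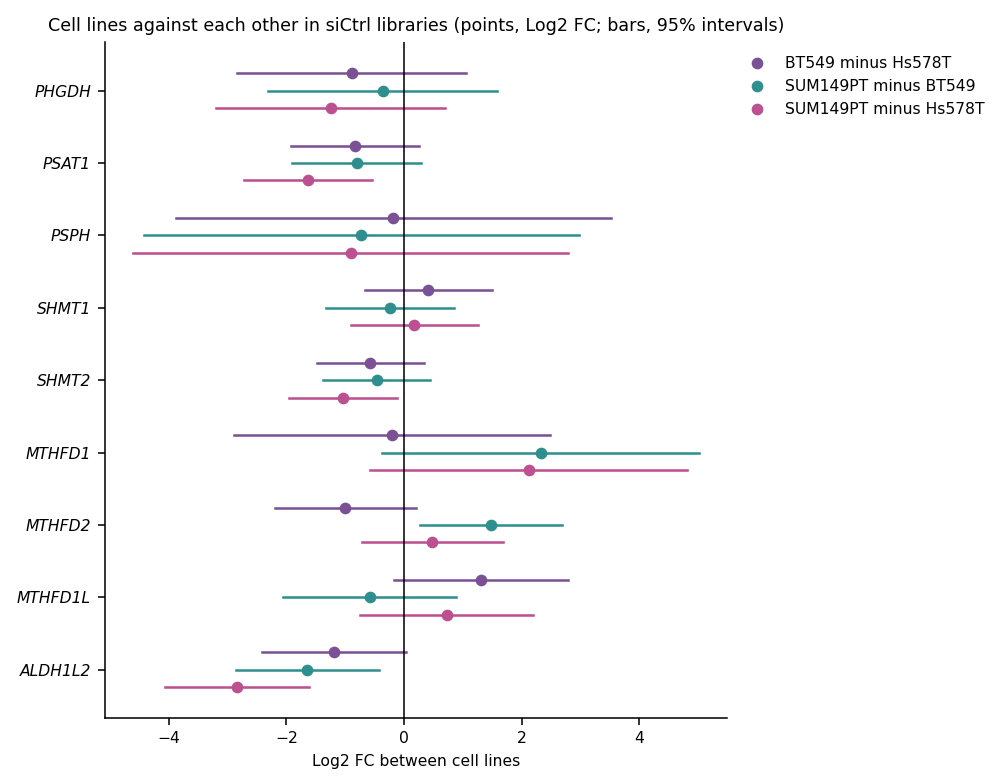
Log2 FC between cell lines in the siCtrl libraries, with 95% intervals from limma, for each gene. ALDH1L2 has the lowest value, -2.83 between SUM149PT and Hs578T, and that interval and the one of PSAT1 are the 2 that go with a call.

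The siASAP1 libraries are separate samples in which the same line differences can be seen again. Over both arms ALDH1L2 ran from 44.7 to 160.3 normalised reads in the 6 SUM149PT libraries, from 159.1 to 662 in BT549 and from 463 to 1945 in Hs578T, so SUM149PT and Hs578T did not overlap. In the siASAP1 libraries alone its Log2 FC was -3.30 (SE 0.50, limma adjusted p = 0.000723) between SUM149PT and Hs578T, -1.86 (SE 0.50, adjusted p = 0.0254) between BT549 and Hs578T and -1.44 (SE 0.50, adjusted p = 0.0656) between SUM149PT and BT549. The order was therefore the same in both arms, and only the neighbours BT549 and SUM149PT missed the threshold in both. In the siASAP1 libraries 2 of 8 members tested were called between SUM149PT and Hs578T, beside 2938 of 10527 probes. Between BT549 and Hs578T 2 of 8 were called, beside 2057, and between SUM149PT and BT549 0 of 8, beside 2284. For PSAT1 the siASAP1 libraries gave -1.43 (SE 1.39, limma adjusted p = 0.479), which does not repeat its call.

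MTHFD1L was lowest on average in Hs578T in both arms. Hs578T had 0 to 23.6 normalised reads over its 6 libraries, against 41.4 to 82.1 in BT549, without overlap, and 12.8 to 69.2 in SUM149PT. After siASAP1, BT549 was higher than Hs578T by a Log2 FC of 3.47 (SE 0.96, limma adjusted p = 0.0279) and SUM149PT by 3.41 (SE 0.96, adjusted p = 0.0224), with 1 Hs578T library at 0 reads. Both calls are among those set beside all probes in the paragraph above. In siCtrl the same differences were 1.31 (SE 0.66, adjusted p = 0.246) and 0.73 (SE 0.66, adjusted p = 0.488). The test of whether the arms differ over the lines gave MTHFD1L an adjusted p of 0.892 by limma, so a difference between the arms is not shown. The remaining genes (SHMT1, SHMT2, MTHFD1, MTHFD2 and PSPH) were called between no pair of lines in either arm by limma, and PHGDH, which was below the minimum count in the siASAP1 libraries, in none of the siCtrl pairs.

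Pairs of the enzymes differed widely in how alike they were from library to library. Counting error in the weakly read probes can lower such correlations, and other probe pairs were not computed. A median near 0 therefore does not show that the genes vary apart. With the mean of each cell line removed, the 36 pairs of members had Pearson r from -0.70 to 0.61 over the 18 libraries, with a median of 0.06, and 20 pairs were above 0. SHMT1 and MTHFD2 were the most alike (r = 0.61), followed by PHGDH and MTHFD2 (0.50), and PSPH and SHMT1 the most opposed (-0.70). Both SHMT1 and MTHFD2 were lower in the library labelled siCtrl replicate 2 of SUM149PT than in its sister siCtrl libraries. The probes most like the average of the 9 genes were YBX3 (r = 0.90), SLC39A1 (0.89), MRPL43 (0.88), TAPBP (0.88) and ASAP1 itself (0.88), over 18 libraries that share 2 treatments, which alone can raise such values.

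The wider pathway was followed in 45 further genes (47 probes): 16 folate partners, 4 genes of the glycine cleavage system, 13 of serine use and transport, 4 of the methionine cycle and 8 known regulators and ATF4 markers. In the 18-library fit 0 of the 38 probes tested passed an adjusted p of 0.05 by limma (0 also with voom weights), and 7 had an unadjusted p below 0.05, against 15.8% of all probes. By the DEG limits 2 of 34 were called in BT549, both lower (against 3.69% of all probes lower and 3.28% higher), 1 of 37 in Hs578T, lower (1.44% and 1.34%), and 3 of 37 in SUM149PT, 1 lower and 2 higher (4.29% and 5.27%). None was called in more than 1 line. The medians over these lists were -0.34 in BT549, -0.13 in Hs578T and 0.12 in SUM149PT, and -0.02 in the 18-library fit, beside 0.02 over all probes there.

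ATF4 had a positive Log2 FC in all 3 lines. Over the 18 libraries 8 of the 9 members had negative values, so a negative value was not particular to the 5 named above as ATF4 targets. Those 5 ran from -1.69 (PHGDH) to -0.12 (SHMT2), and among them MTHFD2 in BT549 (0.17) and SHMT2 in Hs578T (0.03) were positive. For ATF4 the siCtrl and siASAP1 libraries held 548, 673 and 789 and 652, 1262 and 1823 normalised reads in BT549, 470.0, 1092 and 576 and 916, 1068 and 1107 in Hs578T, and 732, 276 and 611 and 601, 1473 and 972 in SUM149PT. The groups overlapped in each line, and the 18-library Log2 FC was 0.78 (SE 0.25) with an unadjusted p of 0.00537 and an adjusted p of 0.118 by limma. Of the 7 regulator and ATF4 marker probes tested, 5 had a positive and 2 a negative Log2 FC over the 18 libraries, with a median of 0.24. MYC, the other regulator followed throughout, had a Log2 FC of 0.12 (SE 0.24, limma adjusted p = 0.869) over the 18 libraries.

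The 6 pathway genes that met the DEG limits in a single line are named after their values were seen. In BT549 these were ASNS, the asparagine synthetase that ATF4 activates, with a Log2 FC of -2.91 (SE 1.17), and SPTLC2, a subunit of the enzyme that joins serine to a fatty acid in sphingolipid synthesis, with -2.93 (SE 1.08). Both were weakly read there, and siASAP1 replicate 3 had no read of either. ASNS had 48.7, 21.4 and 16.1 normalised reads in siCtrl and 2.67, 11.3 and 0 in siASAP1. SPTLC2 had 28.7, 28.9 and 23.1 and then 6.22, 5.66 and 0. MTR, the methionine synthase, was lower in Hs578T, with 18.6, 30.2 and 35.5 normalised reads in siCtrl and 6.80, 10.4 and 6.40 in siASAP1 (Log2 FC -1.69, SE 0.70). In SUM149PT AHCY, which clears S-adenosylhomocysteine, was lower (-1.39, SE 0.57), CTH, which makes cysteine from cystathionine, was higher (1.11, SE 0.47), and so was DDIT3, a stress factor downstream of ATF4, through 1 of its 2 probes, from 140.2, 148 and 104 to 585, 563 and 568 (2.14, SE 0.39). Their adjusted p values by limma were 0.275 to 0.923, so none passed over all probes.

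Between the lines, in the siCtrl libraries, 1 of the 38 pathway probes was called for BT549 against Hs578T (13.8% of all probes), 7 for SUM149PT against BT549 (18.2%) and 6 for SUM149PT against Hs578T (20.2%). CBS and MTAP, named here after their values were seen, had the largest of these differences. CBS, which joins serine to homocysteine, had 41.5, 11.8 and 44.8 normalised reads in SUM149PT against 578, 521 and 516 in BT549 and 473, 685 and 743 in Hs578T, for a Log2 FC of -4.20 (SE 0.50, limma adjusted p = 0.000239) against BT549 and -4.41 (SE 0.50, adjusted p = 0.000153) against Hs578T. MTAP, the first enzyme of methionine salvage, had no reads in the 3 siCtrl libraries of SUM149PT and 0 to 13.2 normalised reads after siASAP1 there, against 84.9, 118 and 114 in BT549 siCtrl and 50.6, 12.2 and 18.7 in Hs578T siCtrl.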

How the data were processed

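Expression was measured by TempO-Seq in 18 libraries (3 cell lines, siASAP1 or siCtrl, 3 biological replicates each). The submitters' notes name bcl2fastq, Bowtie and DESeq2, and the genome build was not given in the sources used here. The deposited values are log2 of the read count plus 1 after the authors divided each probe's count by a DESeq2 size factor. These gave back whole reads for 100% of values (within 0.05 reads). The 9 genes and the pathway lists were chosen with earlier results of these data known.

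Probes with a mean normalised count of at least 10 in the libraries compared were fitted with limma 3.58.1 (trend) in R 4.3.3, within each line, over 18 libraries with line as a term, for the interaction, and between lines in siCtrl, with Benjamini-Hochberg adjustment over all probes. SEs and p-values cover the spread between replicates, and 3 against 3 samples allow an exact permutation p no lower than 0.1. The fits were tested on simulated data. Named were all 9 members, ASAP1, pathway genes called over 18 libraries or in at least 2 lines (none), ATF4, MYC, and the 5 probes most like the members' average, and others are said to be chosen after their values were seen. Alternatives covered scaling, count filter, pseudocount, replicate block, pooled fit, voom on reads and leaving out each library.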

Additional observations from a re-analysis of the deposited data

How the results depend on the processing

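Of 1100 Log2 FC values of the 9 genes recomputed under the alternatives, 17 gained a call, 20 lost one and 58 changed sign, 0 of these with a call on either side. Of the gains 7, and of the losses 9, were between siASAP1 and siCtrl. The cause of these changes was not tested. Between siASAP1 and siCtrl, the single Hs578T member call became 0 with scaling to library totals or the upper quartile, a minimum count of 50, all 18 libraries in a single fit or voom weights, and 0 to 2 with a library left out, while BT549 gave 0 to 1 and SUM149PT 0 to 2. Pathway calls in BT549 (2) became 0 with a minimum of 50, 1 with voom and 0 to 12 with a library left out. In Hs578T (1) they became 0 without the filter, with a minimum of 50, in the single fit or with voom, 2 with the replicate block and 0 to 2 with a library left out, and in SUM149PT (3) 1 with the replicate block, 7 in the single fit and 1 to 6. Over 18 libraries (0) a pseudocount of 5 gave 1, and a library left out 0 to 1. For the interaction (0), leaving out a library gave 0. It was 3 without both BT549 siASAP1 replicate 1 and SUM149PT siCtrl replicate 2, a setting added after seeing the data that kept SUM149PT siASAP1 replicate 2.

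Between lines, members called for BT549 against Hs578T went from 0 to 2 in siASAP1 libraries, a comparison added after seeing the data. For SUM149PT against BT549 they went from 0 to 1 with library totals or the replicate block, to 2 in the single fit and to 0 to 2 with a library left out. For SUM149PT against Hs578T they went from 2 to 1 without the filter, with the replicate block or in the single fit, and to 1 to 2 with a library left out, where ALDH1L2 stayed called. Pathway calls for BT549 against Hs578T (1) were 0 without the filter, 4 with the replicate block, 3 in the single fit, 2 with a pseudocount of 5, summed probes or voom, 7 in siASAP1 libraries and 0 to 8 with a library left out. For SUM149PT against BT549 (7) they were 4 with a minimum of 50 and 4 to 16, and against Hs578T (6) 2 to 13.

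Over all probes, calls in Hs578T (264) were 430 without the filter, 142 with a minimum of 50 and 435 with the replicate block, and in SUM149PT (963) 351 with the block and 1551 in the single fit. Over 18 libraries (182) they were 111 without the filter and 34 with the block. For the interaction (1) they were 19 without the filter, 2 with a minimum of 50, 0 with the block, 4 with a pseudocount of 5 and 2 with voom. They were 276 without BT549 siASAP1 replicate 1 and SUM149PT siCtrl replicate 2, the setting added after seeing the data. Leaving out a library gave 325 to 2169 calls in BT549 (674), 158 to 634 in Hs578T, 501 to 2325 in SUM149PT, 99 to 206 over 18 libraries, 906 to 2152 for BT549 against Hs578T (1419), 1313 to 3351 for SUM149PT against BT549 (1862) and 1362 to 3103 against Hs578T (2070). The highest counts in BT549 and SUM149PT came without siASAP1 replicate 1 and siCtrl replicate 2. In BT549 and SUM149PT replicate numbers did not pair the samples, since deviations of same-numbered libraries correlated from -0.66 to 0.14. In Hs578T the same-numbered libraries correlated at 0.10, 0.42 and 0.41, and the other pairs from -0.40 to 0.14. With the replicate block, Hs578T probes that passed the adjusted p limit went from 0 to 37. Whether the Hs578T samples were paired was not tested, and the main fit did not pair them.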
